A study of Mus musculus with 30 samples.

Results

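The genes described here encode the machinery that carries proteins into mitochondria and the pore proteins of the mitochondrial outer membrane. They were chosen by name alone: every listed gene whose symbol begins with Tomm or Timm followed by a digit, and Vdac1, Vdac2, Vdac3, Samm50, Mtx1, Mtx2, Pam16, Dnajc19, Grpel1, Hspa9, Chchd4, Gfer, Pmpca and Pmpcb. This gave 35 of the 14259 genes listed for postnatal day (PND) 1 and 21, and 35 of the 13091 genes listed for PND42. All 35 passed the filter on low values in every comparison, and the lowest value of any of them in any library was 68.3 normalised counts, for Timm8a1. Tomm6, Timm8a2, Timm10b and Tomm20l were not analysed here.

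Nearly all mitochondrial proteins are made in the cytosol and imported as unfolded chains. The TOM complex of the outer membrane recognises them and lets them through. TIM23 with its matrix motor then pulls in chains that carry a cleavable presequence, TIM22 with the small TIM chaperones inserts carrier proteins into the inner membrane, SAM folds barrel proteins such as the VDAC channels into the outer membrane, MIA traps small proteins between the membranes by making disulphide bonds, and the processing peptidase MPP removes presequences in the matrix. Liver cells are rich in mitochondria, and cadmium, a toxic metal that binds thiols, is taken up by liver.

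RNA of whole liver from CD-1 mice was sequenced in 30 libraries. The exposed offspring are labelled 500 ppb CdCl2, with gestational exposure named in the study's title, and the control offspring are labelled Control; the sources used here do not give the route of dosing, the dams or the litters. There were 4 exposed and 4 control females at PND1, 3 exposed and 3 control females at PND21, 4 exposed and 4 control females at PND42, and 4 exposed and 4 control males at PND42. Nothing in the labels says which animals were littermates, so the p-values measure the spread between these animals only. Some animal tags in different age or sex groups begin with the same number and letter. The labels do not say what these mean, so animals of different groups may be related. PND1 and PND21 were scaled together by the authors and PND42 separately, so levels are compared within those tables.

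Libraries held 22.03 to 29.63 M reads (M for 1e6) at PND1 and PND21 and 27.72 to 40.09 M reads at PND42. All 8 hepatocyte markers were listed in every table, with summed levels of 1139901 to 5109679 normalised counts per library. One PND42 female control column and 3 of the 4 PND42 male control columns have no replicate number (unnumbered, and a, b and c in males). The female one bears in its name the tag of a PND21 control in the labels, so which animal it is remains uncertain. Among the males, the unnumbered control a stood apart from the other controls in these genes: its members lay at a median of -0.71 (log2) from the male control mean, against -0.01, 0.17 and 0.53 for the other male controls. Where leaving out either library changed a call or moved a value by more than 1.5 times, this is given for the main results. It is not given for every gene or list.

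The promoters of these genes carry short motifs that are background to their regulation: the core CCGGAAG is bound by ETS factors such as GABP, and GCGCANGCG by NRF1, both known regulators of nuclear genes for mitochondria. RefSeq promoters (GRCm38.p6, the assembly that mm10 names) were found for 29 of the 35 genes, in 32 windows because some genes have more than 1 start. In the 250 bases before the start, on either strand, the ETS core stood in 14 of 32 windows (43.8%), against 6.91% of 32851 windows of the same length over all genes. The NRF1 core stood in 4 of 32 windows (12.5%), against 5.16% of all windows, and the SP core GGGCGG, bound by SP1, in 20 of 32 (62.5%) against 32.7%. Each window was counted once per motif, whether or not matches overlapped, and a match is a description of the letters and not of binding.

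The 150 bases before the RefSeq start follow for 9 of these genes, chosen after their values were seen, because they place the motifs beside the genes that carry the results. Each reads 5′ to 3′ on the strand of the gene, and capitals mark the ETS or NRF1 core. Timm10, Pmpcb, Mtx2, Timm8b and Tomm22 fell in exposed PND42 females and hold the ETS core; Tomm34, which was higher there, holds it at 2 places, 106 and 9 bases before the start; Tomm20 and Pam16 hold the NRF1 core; and Timm9, the partner of Timm10, holds neither.
Timm10: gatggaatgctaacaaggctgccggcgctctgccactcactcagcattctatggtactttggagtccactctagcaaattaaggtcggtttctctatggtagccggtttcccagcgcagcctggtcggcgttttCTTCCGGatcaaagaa
Timm9: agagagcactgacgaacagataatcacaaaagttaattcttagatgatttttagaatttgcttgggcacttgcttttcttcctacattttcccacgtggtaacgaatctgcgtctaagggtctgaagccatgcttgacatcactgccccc
Timm8b: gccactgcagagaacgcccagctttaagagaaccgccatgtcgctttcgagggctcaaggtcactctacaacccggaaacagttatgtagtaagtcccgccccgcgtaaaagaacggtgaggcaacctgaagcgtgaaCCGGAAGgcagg
Pmpcb: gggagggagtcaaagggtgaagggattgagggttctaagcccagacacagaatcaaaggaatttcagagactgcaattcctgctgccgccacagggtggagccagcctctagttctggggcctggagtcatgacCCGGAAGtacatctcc
Mtx2: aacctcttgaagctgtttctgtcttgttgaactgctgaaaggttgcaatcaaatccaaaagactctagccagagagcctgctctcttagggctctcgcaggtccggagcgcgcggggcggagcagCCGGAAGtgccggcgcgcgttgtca
Tomm22: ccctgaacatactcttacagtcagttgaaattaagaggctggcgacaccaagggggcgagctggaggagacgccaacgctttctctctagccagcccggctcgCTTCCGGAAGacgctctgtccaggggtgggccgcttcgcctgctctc
Tomm20: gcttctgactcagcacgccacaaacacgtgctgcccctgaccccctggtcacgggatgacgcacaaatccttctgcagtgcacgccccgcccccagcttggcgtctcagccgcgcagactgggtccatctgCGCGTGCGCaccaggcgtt
Tomm34: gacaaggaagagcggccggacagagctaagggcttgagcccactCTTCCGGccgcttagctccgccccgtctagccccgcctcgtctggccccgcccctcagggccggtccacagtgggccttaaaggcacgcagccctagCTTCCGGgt
Pam16: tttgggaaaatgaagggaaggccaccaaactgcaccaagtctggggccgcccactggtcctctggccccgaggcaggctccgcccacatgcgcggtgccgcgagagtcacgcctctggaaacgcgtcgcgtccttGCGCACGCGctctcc
On mm10 these stretches are chr2:84826871-84827020 (plus strand) for Timm10, chr12:71136676-71136825 (minus) for Timm9, chr9:50603751-50603900 (plus) for Timm8b, chr5:21737010-21737159 (plus) for Pmpcb, chr2:74825662-74825811 (plus) for Mtx2, chr15:79670718-79670867 (plus) for Tomm22, chr8:126945922-126946071 (minus) for Tomm20, chr2:164071103-164071252 (minus) for the first of the Tomm34 starts, and chr16:4624947-4625096 (minus) for Pam16. The first base of the ETS core lay 12 bases before the start in Timm8b, 16 in Timm10 and in Pmpcb, and 25 in Mtx2. In Tomm22 the core occurred on both strands as an overlapping pair, 47 and 44 bases before the start. Grpel1 and Timm29, whose stretches are not shown, held the ETS core further out, 204 and 212 bases before the start. Mtx1 and Timm23, also not shown, held it 10 and 47 bases before the start and did not pass in PND42 females. Timm8a1, Timm17b, Timm22 and Samm50 fell there without the ETS core in the window.

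The largest set of changes was in females at PND42. Of the 35 genes, 23 were lower and 1 was higher in exposed than in control females (limma on the deposited log2 values, adjusted p under 0.05 over 13091 genes), against 21.4% of all genes tested that were lower and 18.9% that were higher. The log2 fold change was negative for 33 of 35, against 49.9% of all genes, and its median was -0.75, against 0.00 over all genes. The 4 exposed females lay wholly below the 4 controls in 27 of the 35, against 23.5% of all genes tested, and wholly above them in 1, against 22.3%. Loss of level was found in every one of the import pathways: both TOM subunits of the small class, 3 of 6 TOM receptor and pore genes, 4 of 10 TIM23 genes, 5 of 7 TIM22 and small TIM genes, 2 of 3 SAM genes, all 3 VDAC genes, both MIA genes and both MPP subunits.

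Among the TOM receptors, Tomm20, the receptor that first binds presequences, had 312, 386, 388 and 379.8 normalised counts in the exposed females, against 795, 1151, 822 and 1140.0 in the controls. The exposed animals were close to each other and all below the lowest control, with a log2 fold change of -1.40 (SE 0.23, adjusted p = 0.00021). Tomm22, the central receptor that passes chains to the pore, had 514, 430.4, 404 and 592 in exposed and 997, 1025, 921 and 1025 in control females, again without overlap, and a log2 fold change of -1.05 (SE 0.22, adjusted p = 0.0012). Tomm70a, the receptor for carrier proteins, fell by 0.71 (adjusted p = 0.035). The pore itself, Tomm40, had 864, 871, 619 and 743 in exposed and 1148, 1008, 962 and 1133 in control females; these did not overlap, but the log2 fold change of -0.47 (adjusted p = 0.083) missed the threshold. Tomm40 passed with the replicate block (adjusted p = 0.046) and when the females were fitted alone (adjusted p = 0.016). Its paralog Tomm40l was at 0.22 (adjusted p = 0.55), with overlapping groups.

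Tomm34, a cytosolic co-chaperone that binds preproteins outside the mitochondrion, was the only gene of the 35 called higher. It had 539, 514, 565 and 519 normalised counts in exposed and 436.6, 314.7, 391.5 and 322.6 in control females, so that the lowest exposed animal was above the highest control, with a log2 fold change of 0.56 (SE 0.21, adjusted p = 0.044). That call was kept only when control 2 was left out and was lost when any of the other 7 females was. The small TOM subunits, which stabilise the pore, both fell: Tomm5 had 196, 263, 183 and 227 in exposed and 367, 467, 461 and 487 in control females, with a log2 fold change of -1.04 (SE 0.33, adjusted p = 0.019). Tomm7 had 956, 876, 819 and 1002 in exposed and 1795, 1201, 1884 and 1256 in control females, with a log2 fold change of -0.72 (adjusted p = 0.022); its controls fell into a higher and a lower pair, and both pairs were above every exposed animal.

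**Figure D1:**
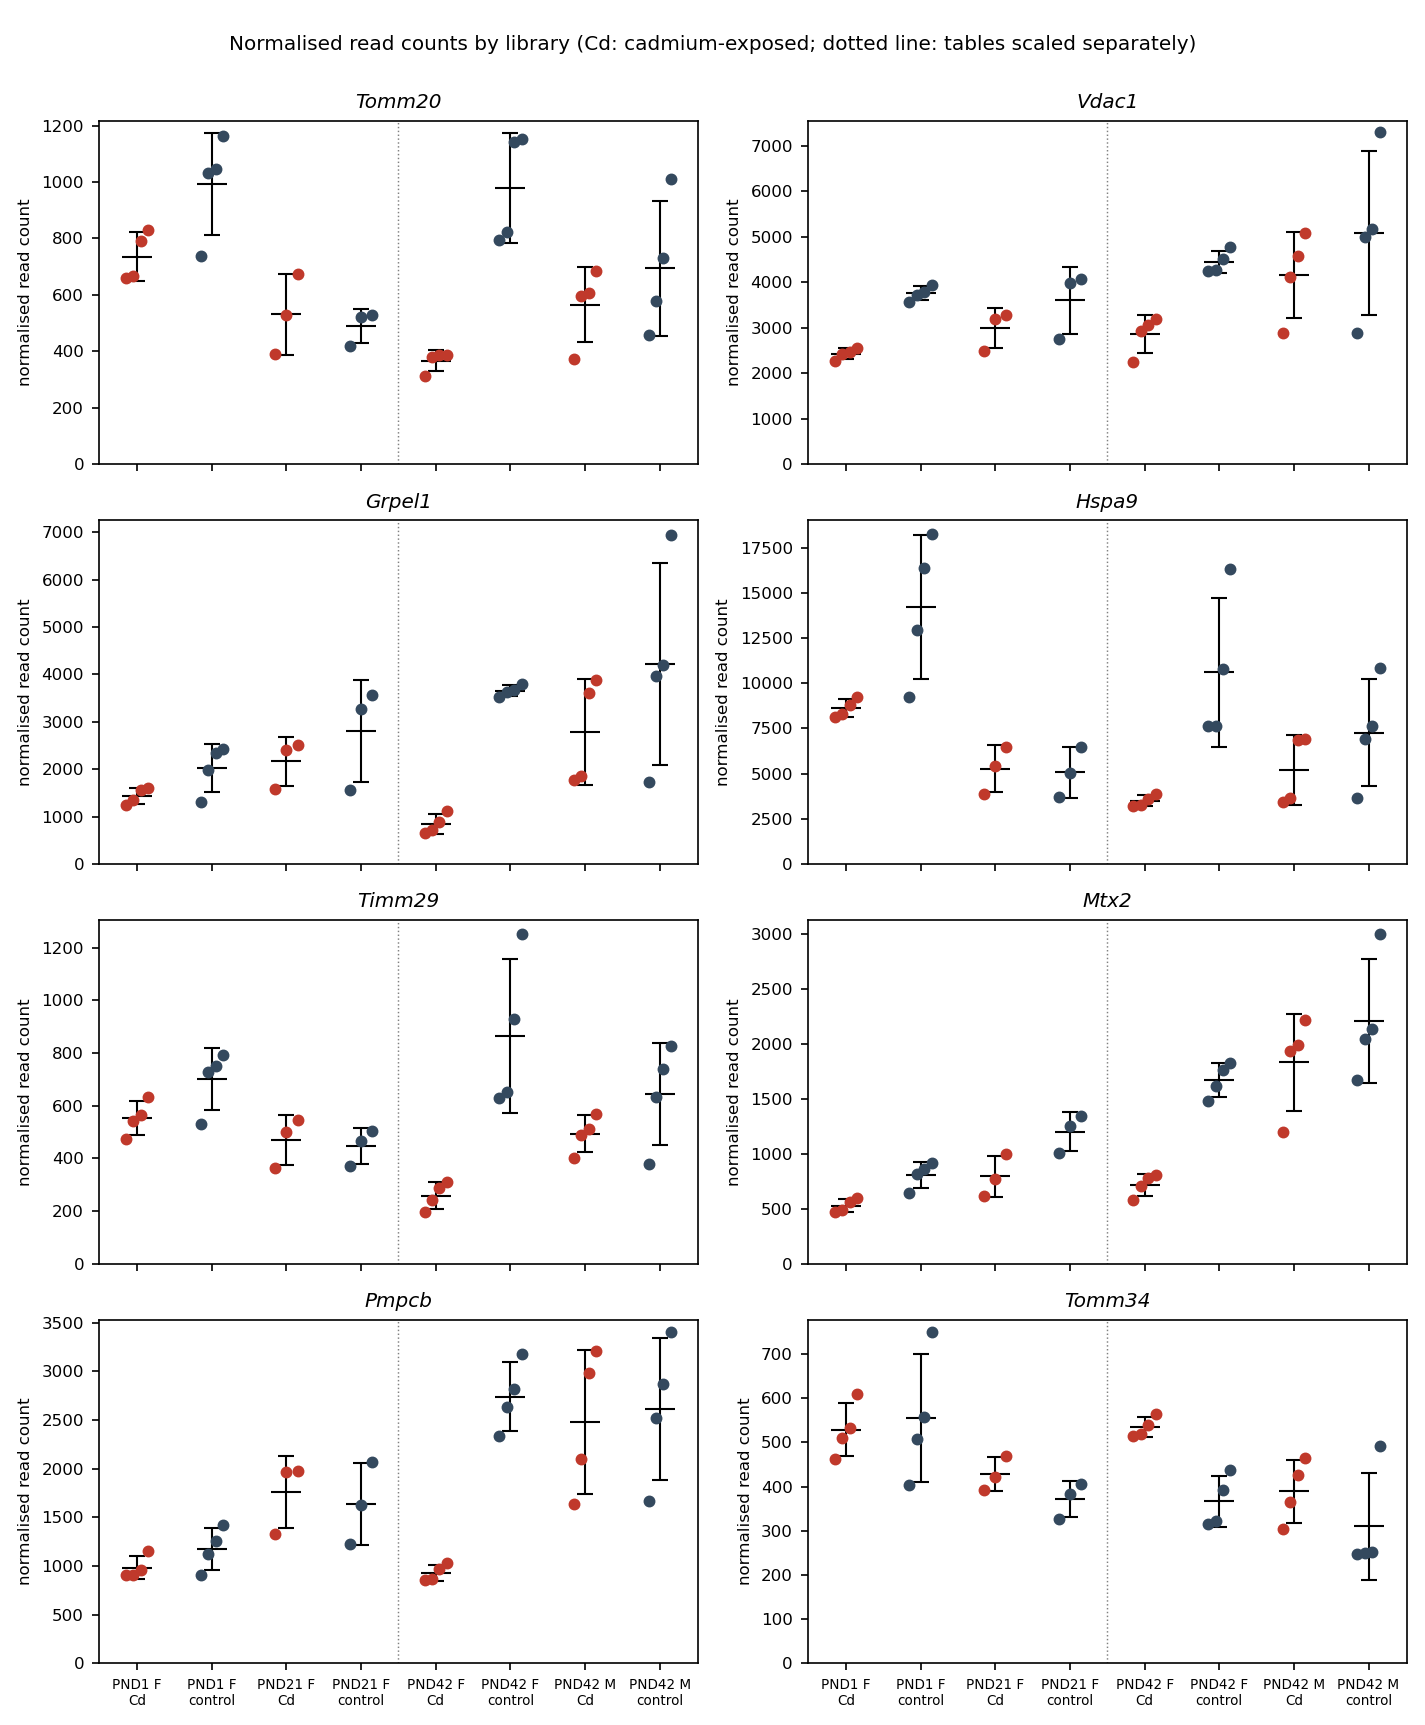
Normalised counts (y axes) of 8 import genes in each library, by age, sex and exposure (x axis); red points are exposed animals, dark points controls, and bars show the mean and SD, with a dotted line between the tables that were scaled separately. In PND42 females Tomm20, Grpel1, Timm29, Mtx2 and Pmpcb sit below every control, Tomm34 sits above, and in PND42 males the groups overlap in every panel.

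In the TIM23 pathway the changes were uneven within the channel and within its motor. Grpel1, the exchange factor that resets the matrix Hsp70, had the largest loss of the 35: 886, 706, 657 and 1121 normalised counts in exposed females, against 3633, 3525, 3674 and 3801 in controls, with a log2 fold change of -2.15 (SE 0.34, adjusted p = 0.00016). Hspa9, that Hsp70, had 3232, 3282, 3601 and 3893 in exposed and 7642, 16338, 7616 and 10797 in control females. All exposed animals were below the lowest control although the controls spread widely, and the test gave a log2 fold change of -1.53 (SE 0.32, adjusted p = 0.0013). Timm17b, a channel subunit encoded on the X chromosome, had 403, 370.5, 349 and 388 in exposed and 975, 712, 1027 and 801 in control females, with a log2 fold change of -1.20 (SE 0.25, adjusted p = 0.0013), and Timm21, which links the channel to TOM and the respiratory chain, fell by 0.75 (adjusted p = 0.0067).

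The other 6 TIM23 genes did not pass. Timm23, the channel itself, had 403, 439, 496 and 411 in exposed and 449, 741, 367 and 602 in control females, which overlapped, at -0.26 (adjusted p = 0.37). The paralog Timm17a was at -0.61 (adjusted p = 0.065) and the presequence receptor Timm50 at -0.35 (adjusted p = 0.19), both without overlap between the groups. Dnajc19 and Pam16, the J-protein of the motor and its partner, were at -0.19 and -0.05, and Timm44, which tethers Hspa9 to the channel, was at -0.11. The fold changes in this pathway therefore spanned -2.15 to -0.05.

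In the TIM22 pathway, Timm29, a subunit of the human TIM22 complex, had 286, 241, 195 and 309.6 normalised counts in exposed females, against 630.0, 1253, 650.4 and 928 in controls, with a log2 fold change of -1.71 (SE 0.25, adjusted p = 8.6e-05). Timm22, the insertion pore, fell by 1.14 (adjusted p = 0.0027). The small TIMs work as paired rings that shield hydrophobic chains in the intermembrane space. Timm10 had 229.7, 234, 168 and 228 in exposed and 698, 506, 732 and 730.4 in control females, with a log2 fold change of -1.63 (SE 0.29, adjusted p = 0.00039), whereas its ring partner Timm9 was at -0.08 (adjusted p = 0.74). Timm8b fell by 1.16 (adjusted p = 0.0062) and Timm8a1 by 1.30 (adjusted p = 0.011), while Timm13, the ring partner of Timm8a1, was at -0.46 (adjusted p = 0.24). Reads of Timm8a1 may be shared with its close copy Timm8a2, so its value is uncertain.

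The partners were also set against each other within each library, as pairs picked after their values were seen and therefore without a test. The log2 ratio of Timm10 to Timm9 was -2.74 ± 0.35 in exposed and -1.19 ± 0.30 in control PND42 females (SD, n = 4 each), without overlap, and -2.10 in exposed against -1.61 in control males, with overlap that ended without male control a (-1.43 in the other 3). The ratio of Timm8a1 to Timm13 was -3.34 in exposed and -2.49 in control females, that of Pmpcb to Pmpca -0.28 in exposed and 0.49 in control females, that of Timm17b to Timm17a 0.01 in exposed and 0.60 in control females, and that of Mtx2 to Mtx1 0.08 in exposed and 0.88 in control females. In each of these 5 pairs the exposed females lay wholly below the controls. The ratio of Grpel1 to Hspa9, at -2.08 in exposed and -1.46 in control females, overlapped. As the pairs were picked after their values were seen, this separation may follow from the choice. The share of other gene pairs that lay apart, here or at PND1, was not counted. In PND42 males all 6 ratios overlapped between the groups with all 4 controls in; leaving out the unnumbered female control kept the same 5 female pairs apart. At PND1 the exposed females lay wholly below the controls in the ratio of Timm8a1 to Timm13, at -4.27 against -3.67, and in that of Mtx2 to Mtx1, at -0.31 against 0.12.

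For the outer membrane insertion machinery, Mtx2, a metaxin that works with the SAM core, had 703, 803, 579 and 780.0 normalised counts in exposed females, against 1823, 1614, 1479 and 1758 in controls, with a log2 fold change of -1.23 (SE 0.20, adjusted p = 0.00020). Samm50, the SAM core, had 1183, 1069, 1298 and 1380.4 in exposed and 2221, 3057, 2178 and 2060.1 in control females, with a log2 fold change of -0.94 (SE 0.27, adjusted p = 0.010). The exposed animals were all below the lowest control in both genes, whereas Mtx1 was at -0.43 (adjusted p = 0.13) with overlapping groups. The VDAC channels, which carry metabolites across the outer membrane and are themselves inserted by SAM, were all lower. Vdac1 had 3053, 2934, 2247 and 3192 in exposed and 4268, 4769.7, 4247 and 4518 in control females, with a log2 fold change of -0.65 (SE 0.24, adjusted p = 0.036). Vdac3 had 971, 854, 804 and 1068 in exposed and 1737, 1571, 1671 and 1673 in control females, with a log2 fold change of -0.85 (adjusted p = 0.0053), and Vdac2 had 1868, 1678, 1565 and 1819 in exposed and 3111, 2675, 2953 and 2725 in control females, with -0.73 (adjusted p = 0.012). The log2 fold changes of the 3 channels thus spanned -0.85 to -0.65, and none of the 12 exposed values reached the lowest control of its gene.

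The MIA pair and the MPP pair were lower as well. Chchd4, the oxidoreductase that traps substrates, had 191, 245, 224 and 198 normalised counts in exposed and 365, 572, 318 and 529.7 in control females, with a log2 fold change of -1.02 (SE 0.26, adjusted p = 0.0048). Gfer, the sulphydryl oxidase that recharges it, had 492, 405, 486 and 452 in exposed and 708, 670.0, 716 and 659 in control females, with a log2 fold change of -0.59 (SE 0.22, adjusted p = 0.040). Pmpcb, the catalytic subunit of MPP, had the lowest p of the 35. It had 869, 859, 972 and 1027 in exposed and 2339.7, 2814, 3178 and 2630.1 in control females, with a log2 fold change of -1.55 (SE 0.22, adjusted p = 7.6e-05), while Pmpca, which binds the substrate, had 968, 1139, 1198 and 1225 in exposed and 2027, 2023, 1868 and 1826 in control females, with -0.78 (adjusted p = 0.0065).

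Leaving out 1 female at a time gave 18 to 22 lower genes, with 20 when the female control of uncertain sample was left out. The call of Gfer was lost whichever female was left out, that of Vdac1 in 7 of the 8 cases, that of Tomm7 in 4, and that of Tomm5 only without exposed female 3; Tomm70a was also lost in some cases, and the other 18 were lower in all 8. Scaled by nuclear-encoded reads alone, 15 of 35 were lower and 1 higher, in a scaling that moved the median of all genes to 0.39 and that of these 35 to -0.36. That scaling lost the calls of Vdac1, Vdac2, Pmpca, Gfer, Tomm5 and Tomm7, among others. Vdac1 was also lost under quantile normalisation (adjusted p = 0.057), and Gfer in a limma fit without trend or robust (adjusted p = 0.056).

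**Figure D2:**
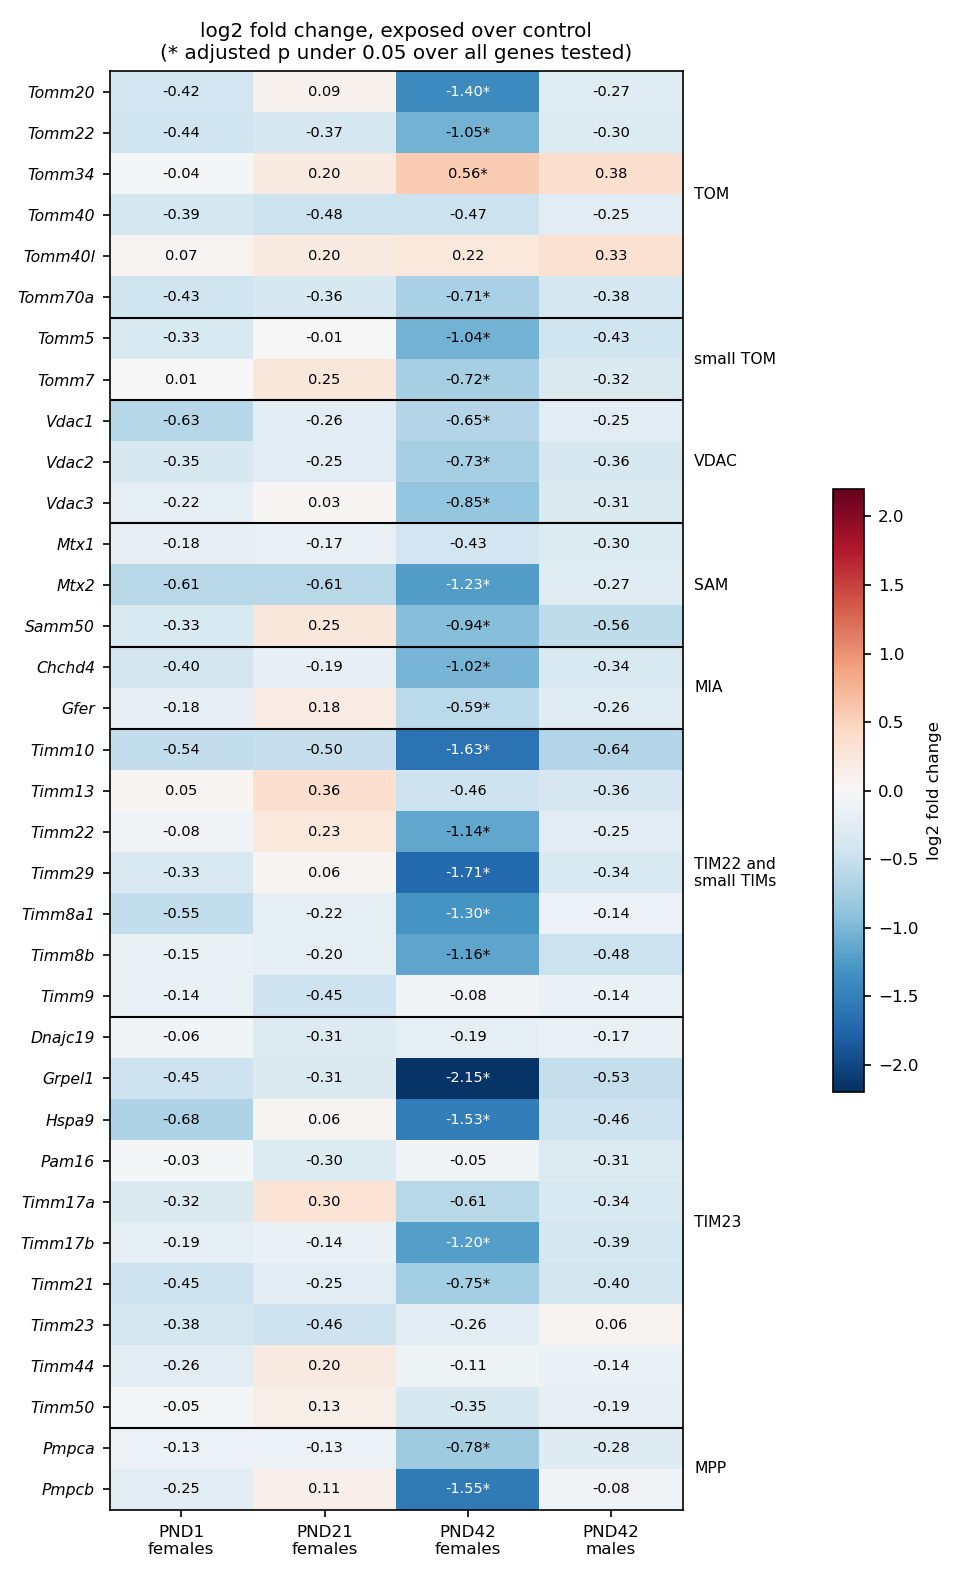
Heat map of the log2 fold change (exposed over control, colour scale) of the 35 genes (rows, grouped by role) in the 4 exposure comparisons (columns); asterisks mark an adjusted p under 0.05. All 24 asterisks are in the PND42 female column, 23 of them on negative values.

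Several measures of the RNA moved with exposure in the same PND42 females. Reads of genes encoded in the mitochondrial genome took 27.6% of the library in exposed females (22.2 to 35.5%) and 8.49% in controls (5.25 to 12.8%). The mean log2 level of genes with over 300 kb of intron was 8.93 in exposed and 7.46 in control females, and that of the nuclear noncoding RNAs Malat1 and Neat1 was 15.65 in exposed and 13.81 in control females. Each difference had an exact two-sided permutation p of 0.029, the smallest that 4 against 4 allows, and an adjusted p of 0.18 over 56 such tests. The summed level of the 8 hepatocyte markers was 1418704 to 2453730 normalised counts in exposed and 2944151 to 4202508 in control females, and 6 of the 8 markers passed as lower. The stellate markers summed to 9150.1 to 11399 in exposed and 12129 to 15089.6 in control females, the cholangiocyte markers to 358 to 656 in exposed and 1035 to 2091 in control females, and the 1 exocrine pancreas marker to 519 to 677 in exposed and 1070.4 to 1676 in control females, each with the same exact p of 0.029. The Kupffer cell, B cell, endothelial, erythroid, neutrophil and mesothelial sums overlapped between the groups. The part of these measures in the lower import genes was not tested. In whole liver, fewer cells of a type and less RNA per cell cannot be told apart.

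In the single exposed females, the members lay at a median of -0.77, -0.77, -0.87 and -0.64 (log2) from the female control mean in animals 1 to 4, with 35.5, 29.7, 22.9 and 22.2% mitochondrial reads. The controls lay between -0.04 and 0.01. Exposed and control females were thus apart in both measures. Short genes were lower in exposed females than long ones over the whole table, and most of these genes are short. The 20 members with up to 10 kb of intron had a median of -0.90 and 14 were called lower, against -0.32 and 31.7% of the 3550 genes in that class. The 14 members with 10 to 30 kb had -0.68 and 8 lower, against -0.16 and 27.6% of 3554 genes, and Mtx2, with 49.0 kb of intron, was at -1.23 where the 3173 genes of 30 to 100 kb had a median of 0.13.

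**Figure D3:**
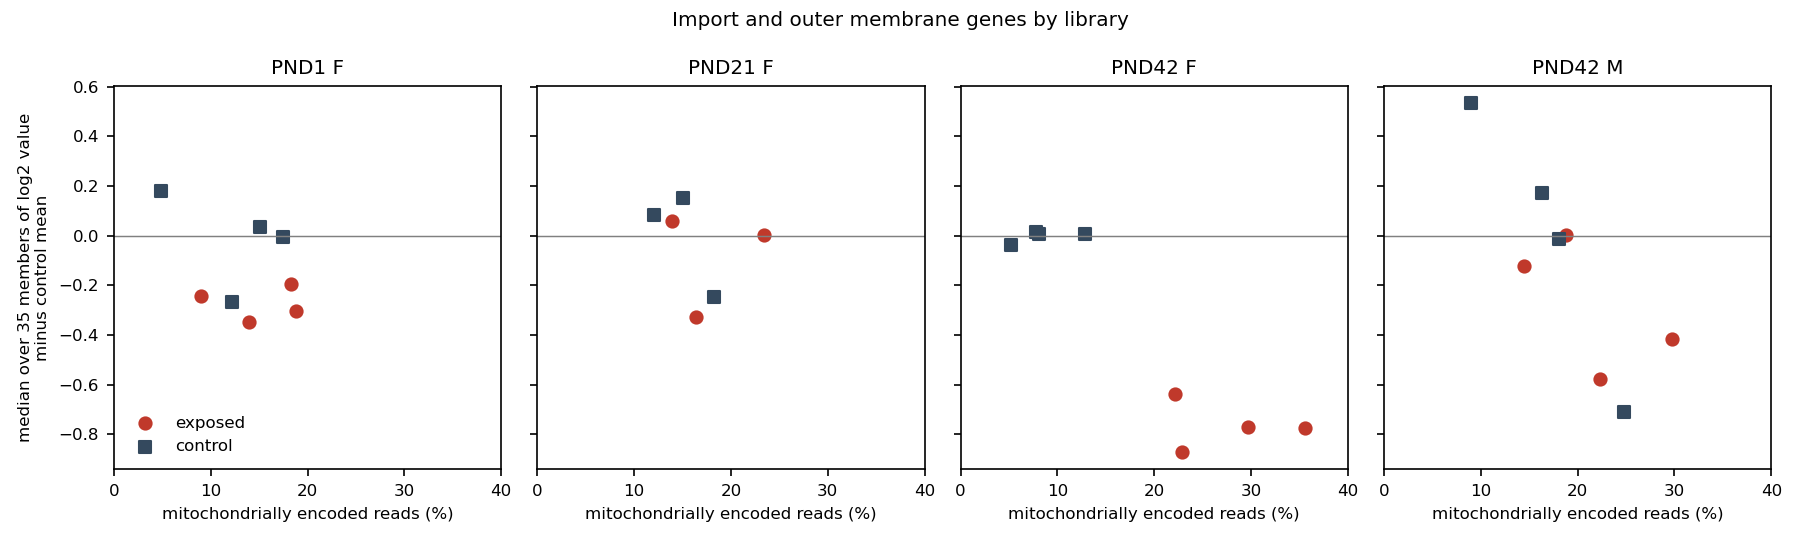
Median over the 35 genes of the log2 difference from the control mean (y axis) against the share of reads from the mitochondrial genome in percent (x axis), 1 point per library, exposed as circles and controls as squares, for each comparison. In PND42 females the exposed circles lie at -0.87 to -0.64 and the control squares at -0.04 to 0.01; in PND42 males 1 control square lies at -0.71 with 24.8% mitochondrial reads.

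In PND42 males none of the 35 genes passed (limma, smallest adjusted p over all genes 0.62), against 0% of all genes tested. At an unadjusted p under 0.05, 1 was lower, Timm10, against 3.39% of all genes. The log2 fold change was nevertheless negative for 32 of 35, against 52.9% of all genes, with a median of -0.30 against -0.03. Timm10 had 351, 322, 628 and 753 normalised counts in exposed males, against 693, 432, 935 and 1125 in controls, at -0.64 (adjusted p = 0.62). Samm50 had 1141, 1129, 1759 and 1942 in exposed and 2317, 1091, 2525 and 3250.2 in control males, at -0.56 (adjusted p = 0.62). In both genes exposed males 1 and 2 and the unnumbered control a were the low animals, and the groups overlapped, as they did in all 35.

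The members of lowest p in the other roles, and Vdac1, which was named in every comparison, had values of the same kind. Tomm34 had 365, 465, 303 and 425 in exposed and 248, 492, 252 and 249 in control males, at 0.38 (adjusted p = 0.62), with control a above every other male. Vdac1 had 2888, 4108, 5092 and 4574 in exposed and 4994, 2889.8, 5172 and 7304 in control males, at -0.25 (adjusted p = 0.71). In Vdac1 too, exposed male 1 and control a were the lowest. Vdac2 had 1800.0, 2437, 3281 and 3015 in exposed and 3461, 2091, 3651 and 4404 in control males, at -0.36 (adjusted p = 0.62), with exposed male 1 and control a lowest. Timm21 had 267, 371, 447 and 426 in exposed and 447, 502, 412 and 625 in control males, at -0.40 (adjusted p = 0.62). Chchd4 had 227, 312, 350.2 and 329 in exposed and 327, 232, 486 and 562 in control males, at -0.34 (adjusted p = 0.65). In these genes, as in the others, the groups overlapped with all controls in. In Samm50, Vdac2, Mtx1, Tomm40, Gfer, Timm13, Timm22, Timm29, Hspa9 and Grpel1 only control a made them overlap. The exposed males were all below the other controls in those genes. In Tomm34 they were all above the other controls. The share of all genes kept apart in this way was not counted. Tomm7 had 1659, 1309, 2140.1 and 1762 in exposed and 2104, 1229, 2609 and 2969 in control males, at -0.32 (adjusted p = 0.65), and Pmpca had 1373, 1184, 2296 and 1699 in exposed and 1882, 1341, 2086 and 2621 in control males, at -0.28 (adjusted p = 0.65). Tomm20 was at -0.27, Hspa9 at -0.46, Tomm40 at -0.25 and Timm23 at 0.06. Without control a the median of the 35 was -0.51 and still none passed; without control c, the highest control, it was -0.12. The fold change was negative for 32 of 35 without control a and 28 without control c. By library, the exposed males lay at -0.58, -0.42, 0.00 and -0.12, with 22.3, 29.7, 18.8 and 14.5% mitochondrial reads, and control a at -0.71 with 24.8%, beside 18.1, 16.4 and 9.03% in the other controls. The B cell markers summed to 225 to 277 normalised counts in exposed and 33.6 to 178 in control males (exact permutation p = 0.029, adjusted p = 0.18), and their part in these values was not tested.

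The exposure effects in the sexes were compared directly as an interaction, male effect minus female effect. For 5 of the 35 genes it was higher in males, against 4.07% of all genes, and for none lower, against 3.84%; the log2 difference was positive for 31 of 35, against 50.5% of all genes, with a median of 0.40. Without male control a the difference was positive for 27 of 35 with a median of 0.21; without control c these were 33 and 0.58, and without the unnumbered female control 31 and 0.44. Pmpcb had the clearest one, at 1.47 (SE 0.32, adjusted p = 0.013): it was at -0.08 in males, with 1635, 2094, 2980.2 and 3213 normalised counts in exposed and 2522, 1669, 2865 and 3403 in control males, and at -1.55 in females. Timm29 differed by 1.37 (SE 0.35, adjusted p = 0.028), Grpel1 by 1.62 (SE 0.48, adjusted p = 0.046), Tomm20 by 1.13 (SE 0.33, adjusted p = 0.042) and Mtx2 by 0.95 (SE 0.28, adjusted p = 0.048). Tomm22, the next, had 0.74 and did not pass (adjusted p = 0.14); Hspa9 had 1.07, Vdac1 0.41, Timm23 0.32 and Tomm40 0.21, none of which passed.

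Only Pmpcb passed this test whichever of the 16 animals was left out. Without exposed male 1, 5 were called, and without male control c 7 were. It was 3 without female control 2 or 4, exposed female 4 or exposed male 2, and 2 without male control a or b or exposed female 1. It was 1 without female control 3, the unnumbered female control, exposed female 2 or 3, male control 1, or exposed male 3 or 4. Timm29 was called in 9 of the 16, Tomm20 and Grpel1 in 4 each and Mtx2 in 2.

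**Figure D4:**
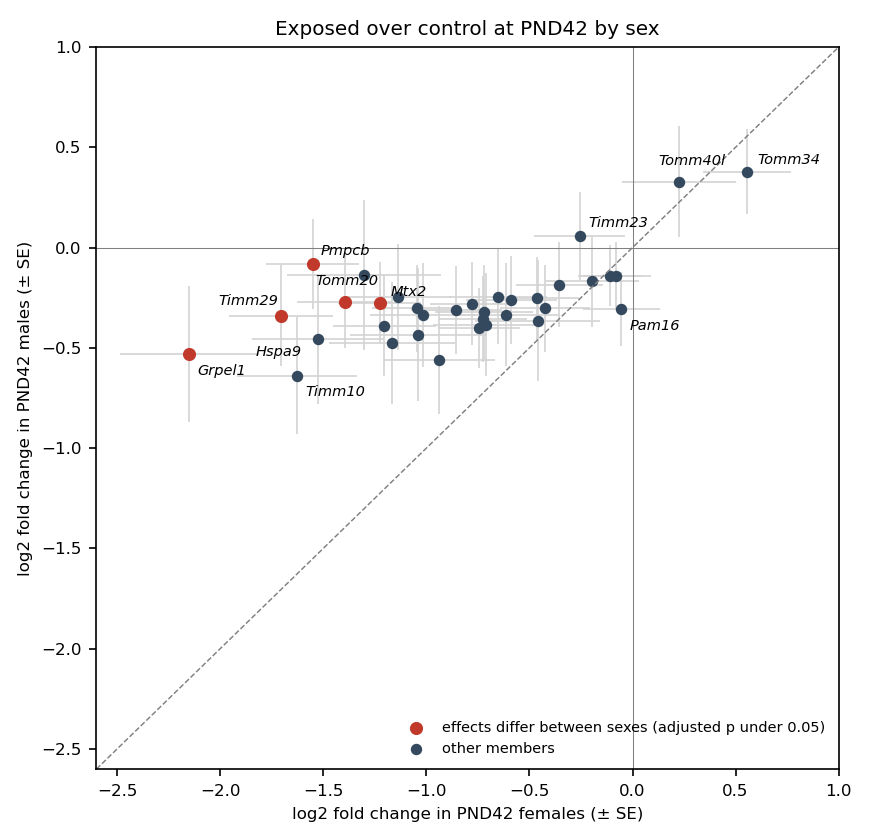
Log2 fold change (exposed over control) with its SE for the 35 genes at PND42, females on the x axis and males on the y axis; red points are the 5 genes whose sex difference passed. Most points lie below 0 on both axes and closer to 0 in males; the red points reach from -2.15 to -1.23 in females and from -0.53 to -0.08 in males.

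In females at PND1 none of the 35 passed (limma, adjusted p under 0.05, 0% of all genes tested; smallest adjusted p over all genes 0.22). At an unadjusted p under 0.05, 18 were lower, against 8.36% of all genes, and 0 were higher, against 6.14%. The log2 fold change was negative for 32 of 35, against 50.8% of all genes, with a median of -0.32 against -0.01. The exposed pups lay wholly below the controls in 6 genes, against 4.82% of all genes tested: Vdac1, Vdac2, Vdac3, Mtx2, Hspa9 and Tomm22.

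Vdac1 had 2419.8, 2467, 2279.9 and 2559.9 normalised counts in exposed pups, against 3572, 3788, 3718 and 3941 in controls. The groups were well apart and each was tight, with a log2 fold change of -0.63 (SE 0.10, adjusted p = 0.24). In the authors' deposited table, Vdac1 was the only member with an adjusted p under 0.05 at PND1, at 0.0085 with a log2 fold change of -0.63, where 1.06% of the 6790 genes with an adjusted p passed; Mtx2 stood at 0.054 and Hspa9 at 0.087 there. Mtx2 had 489, 558, 465 and 593 in exposed and 817, 638, 859 and 914 in control pups, with a log2 fold change of -0.61 (SE 0.14, adjusted p = 0.24). Hspa9 had 8134, 8315, 8812 and 9215 in exposed and 12935, 9237, 18269 and 16363 in control pups, with a log2 fold change of -0.68 (SE 0.20, adjusted p = 0.26). Control pup 2 was the lowest control in both Mtx2 and Hspa9 and came close to the exposed pups.

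The other roles gave smaller values at PND1. Tomm70a had 1705, 1972, 2082 and 2020.1 in exposed and 2838, 2024, 2939 and 2789.9 in control pups, at -0.43 (adjusted p = 0.27), where control 2 overlapped with the exposed pups. Timm10 had 395, 284, 278 and 381 in exposed and 512, 342, 546 and 561 in control pups, at -0.54 (adjusted p = 0.29), again with control 2 among the exposed values. Chchd4 had 326, 276, 278 and 315 in exposed and 373, 317, 486 and 418 in control pups, at -0.40 (adjusted p = 0.30), and the groups overlapped. Tomm5 had 488, 453, 378 and 459.9 in exposed and 590.3, 463, 646 and 549 in control pups, at -0.33 (adjusted p = 0.31). Pmpcb had 908, 958, 912 and 1152 in exposed and 1260.0, 906, 1124 and 1417 in control pups, at -0.25 (adjusted p = 0.46); both genes overlapped between the groups. Tomm20 was at -0.42, Tomm40 at -0.39 and Timm23 at -0.38, while Tomm40l, Timm13 and Tomm7, the 3 members above 0, were at 0.07, 0.05 and 0.01. By library, the exposed pups lay at -0.24, -0.30, -0.35 and -0.19 from the control mean, and control 2 at -0.27, within their range, while the other controls lay at -0.01, 0.04 and 0.18. Mitochondrial reads took 8.98 to 18.8% in exposed and 4.88 to 17.5% in control pups, and the summed endothelial markers were 12864 to 15488 normalised counts in exposed and 9791 to 11038 in control pups (exact permutation p = 0.029, adjusted p = 0.18); their part was not tested.

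In females at PND21 none of the 35 passed either (limma, adjusted p under 0.05), against 0.0288% of all genes higher and 0.0072% lower. At an unadjusted p under 0.05, 2 were lower, against 4.48% of all genes, and 0 higher, against 5.09%. The signs were mixed, with 20 negative, against 51.1% of all genes, and 15 positive, and a median of -0.14 against -0.01 over all genes. Mtx2 had 618, 993 and 773 normalised counts in the 3 exposed weanlings, against 1005, 1253 and 1346 in the 3 controls, with a log2 fold change of -0.61 (SE 0.22, adjusted p = 0.47); the highest exposed value was just below the lowest control. Timm10 had 376, 509 and 346 in exposed and 500.4, 577 and 649.6 in control weanlings, at -0.50 (adjusted p = 0.50), with overlap.

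The groups did not overlap in 6 genes at PND21, 3 in each direction. This was close to the shares of all genes, 7.99% above and 8.62% below. Timm13 at 0.36, Timm17a at 0.30 and Timm44 at 0.20 had all exposed weanlings above the controls; Mtx2, Dnajc19 at -0.31 and Mtx1 at -0.17 had them below. Tomm40 had 1182, 1428 and 895 in exposed and 1209, 1813 and 1860.1 in control weanlings, at -0.48 (adjusted p = 0.54). Timm23 had 413, 359 and 232 in exposed and 518, 420.0 and 410.0 in control weanlings, at -0.46 (adjusted p = 0.55); in both channel genes the highest exposed value was above the lowest control. Vdac2 had 1920.0, 2826 and 2403 in exposed and 2357, 2907 and 3216 in control weanlings, at -0.25 (adjusted p = 0.69), and Tomm7 had 1329.9, 1831 and 1939 in exposed and 1332, 1372 and 1548 in control weanlings, at 0.25 (adjusted p = 0.68). Gfer had 732, 722 and 911 in exposed and 539.8, 784 and 784 in control weanlings, at 0.18 (adjusted p = 0.77), and Pmpca had 1234, 1411 and 1665 in exposed and 1259, 1784 and 1686 in control weanlings, at -0.13 (adjusted p = 0.84). These 4 genes overlapped between the groups, and Vdac1 was at -0.26, Tomm20 at 0.09 and Hspa9 at 0.06. The authors' deposited table held no member with an adjusted p under 0.05 at PND21, where 3.13% of 14235 genes passed. Exposed weanling 1 and control 1 were the low animals of their groups, at medians of -0.33 and -0.25, and the other exposed weanlings lay at 0.06 and 0.00. Without exposed weanling 1 the median of the 35 fold changes was 0.00. The hepatocyte markers summed to 1959586 to 2785836 normalised counts in exposed and 2600890 to 4987050.2 in control weanlings; their part was not tested.

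The effect at PND21 minus that at PND1 passed for none of the 35, against 0.014% of all genes higher and 0% lower, although it was positive for 28 of 35, against 49.8% of all genes, with a median of 0.20. That median was 0.06 without PND21 control 1, 0.10 without exposed weanling 2, 0.12 without PND1 control 4 and 0.29 without exposed weanling 1. The members of lowest p were Timm17a at 0.62 (adjusted p = 0.41), Samm50 at 0.58 (adjusted p = 0.45) and Timm44 at 0.46 (adjusted p = 0.45). Hspa9 had 0.74, Tomm20 0.51, Vdac1 0.37, Tomm40 -0.08 and Timm23 -0.08. At an unadjusted p under 0.05, 3 were higher, against 5.32% of all genes, and 0 lower, against 3.76%.

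Mtx2 and Timm10 were negative throughout: Mtx2 at -0.61, -0.61 and -1.23 in females at PND1, PND21 and PND42 and -0.27 in PND42 males, and Timm10 at -0.54, -0.50, -1.63 and -0.64. Of the 35 genes 19 had a negative log2 fold change in all 4 exposure comparisons, against 20.2% of 12620 genes measured in all. The comparisons share no library, but 1 PND42 female control may come from the animal labelled as a PND21 control, and PND42 males and females were tested in 1 fit. Members passed the test in PND42 females and in none of the other 3 exposure comparisons.

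In control females some of the same genes changed with age between PND1 and PND21, in both directions. By PND21 8 of 35 rose and 8 fell, with a median of -0.08. These shares were below those of all genes, 27.7% higher and 28.3% lower. Without PND21 control 1 that median was 0.11, without PND21 control 3 or PND1 control 2 it was -0.17, and without PND1 control 1 or 4 it was -0.01. Pam16, of the import motor, averaged 829 ± 56.5 normalised counts at PND21 and 281 ± 34.6 at PND1 (SD, n = 3 and 4), a log2 fold change of 1.56. Its J-protein partner Dnajc19 averaged 1965 ± 114 at PND21 and 994 ± 96.6 at PND1, with 0.99. Hspa9, the Hsp70 of the same motor, went the other way, at 5065 ± 1397 at PND21 and 14201 ± 3978 at PND1, with -1.48. These 3 had the lowest p, with adjusted values of 2.6e-06, 2.0e-05 and 0.00013.

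Timm9 rose to 1671 ± 327 at PND21, against 659 ± 105 at PND1 (log2 fold change 1.33), and Tomm20 fell to 490.4 ± 61.0, against 994 ± 181 (-1.01). Timm17a fell to 481 ± 52.3 at PND21, against 776 ± 95.4 at PND1 (-0.69). The others that rose were Tomm7 and Tomm40l by 0.60 each, Mtx2 by 0.58, Timm8b by 0.57 and Mtx1 by 0.52; the others that fell were Timm29 at -0.64, Samm50 at -0.56, Tomm34 at -0.55, Timm17b at -0.47 and Timm44 at -0.38. Vdac1 (-0.08), Tomm40 (0.28) and Timm23 (-0.09) did not pass. Scaled by total reads instead, 3 rose and 20 fell, in a scaling that moved the median of all genes to -0.50 and that of the members to -0.60. Over the same ages all 8 hepatocyte markers rose, and all 9 erythroid and all 8 neutrophil markers fell; as background, newborn mouse liver still forms blood. The part of cell make-up in the import genes was not tested.

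**Figure D5:**
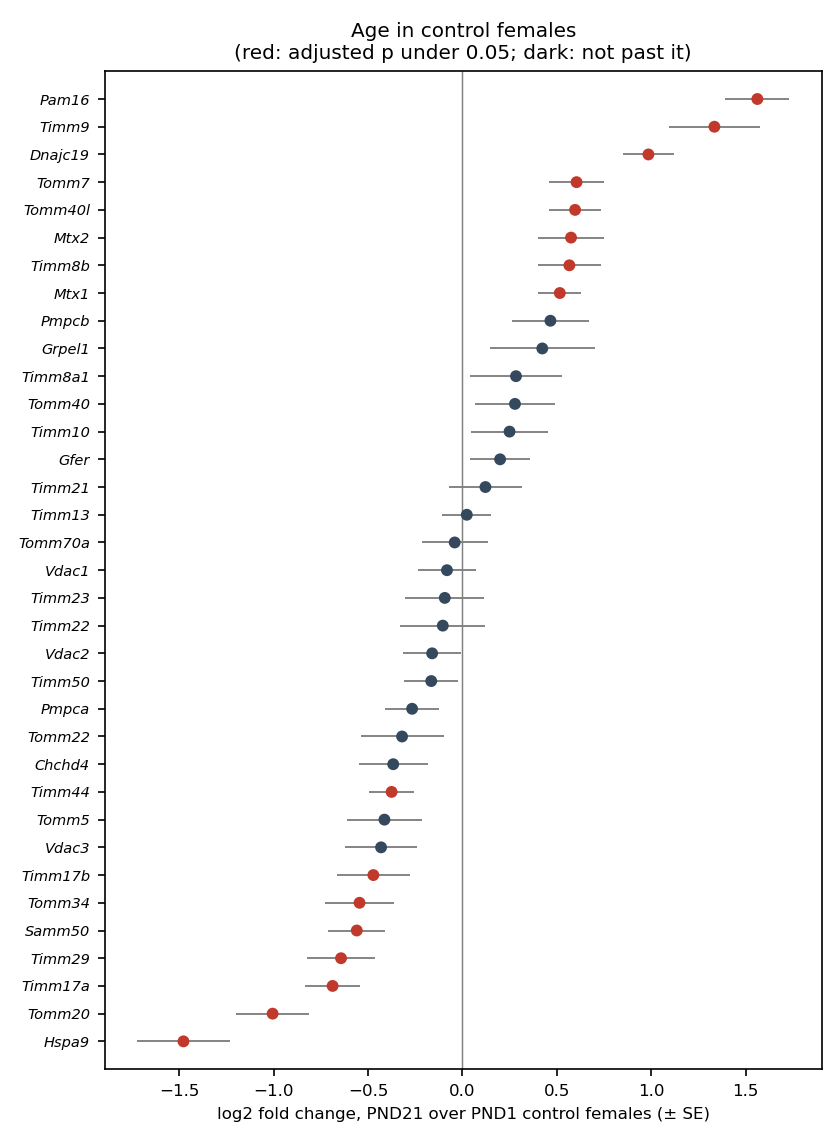
Log2 fold change with its SE (x axis) of the 35 genes (rows) in control females, PND21 over PND1. Pam16, at 1.56, and Hspa9, at -1.48, are the ends of the range, and both serve the same import motor.

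In PND42 controls, 2 of the 35 were higher in males than in females and none lower, against 4.58% of all genes higher and 2.35% lower. Pam16 averaged 999 ± 243 normalised counts in male and 534 ± 94.4 in female controls (SD, n = 4 each), a log2 fold change of 0.89 (adjusted p = 0.0083), and Timm9 2312 ± 448 in male and 1512 ± 186 in female controls, with 0.60 (adjusted p = 0.040). Timm13 (0.79), Dnajc19 (0.56), Tomm40 (0.52) and Tomm20 (-0.53) came next and did not pass, nor did Vdac1 (0.12), Hspa9 (-0.57) or Timm23 (-0.27). The median was 0.12, against 0.37 without male control a and -0.08 without male control c. Without male control a, 8 were higher and 1 lower, and Timm13 (1.19), Dnajc19 (0.80) and Tomm40 (0.77) were among the 8. Without any other control, 1 was higher, Pam16, and Timm9 was lost. How many of all genes passed in these fits was not counted, so their counts have no share to be set against.

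Levels between genes were compared per kilobase of annotated exon. Exons of all annotated transcripts were merged, giving 7.893 kb for Timm17a and 0.518 kb for Timm8b, so the order depends on the annotation. In PND42 female controls the highest were Hspa9 at 2459 ± 953, Timm8b at 2047 ± 282, Vdac1 at 1699 ± 93.8 and Tomm7 at 1363 ± 316 normalised counts per kilobase (SD, n = 4). Hspa9 and Timm8b, neighbours in that order, did not differ beyond their spread. The lowest were Chchd4 at 85.9 ± 23.8, Timm17a at 72.9 ± 6.55 and Tomm40l at 67.8 ± 32.7, also within their spread; without the unnumbered control the same 3 genes were lowest, with Timm17a last. Timm8b, Timm13, Vdac1, Tomm7 and Hspa9 were the 5 highest in the controls of every age and sex.

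Other genes of the same pathways, from lists chosen with earlier results known, are set against the 21.4% of all genes that were lower and the 18.9% that were higher in PND42 females. Of 17 inner membrane carriers that enter through TIM22, 7 were lower and none higher, with a median of -0.57; Slc25a5, an ADP/ATP carrier, was at -2.37, the pyruvate carrier Mpc1 at -1.54 and Slc25a39 at -1.23. Without the unnumbered female control 4 of the 17 carriers were lower, against 2512 of the 13091 genes tested. Of 10 matrix chaperones and proteases, 6 were lower and none higher, among them Hspd1 and Hspe1, the folding chamber and its lid, at -1.77 and -1.32, and Clpx at -1.24. For other outer membrane proteins the count was 12 lower and 1 higher of 26: Tspo was at -1.82 and the mitophagy receptor Fundc1 at -1.40, while the ubiquitin ligase gene Park2 was higher at 2.59. Park2 has 1213 kb of intron and Immp2l, described next, 929.7 kb, and the 324 genes with over 300 kb of intron had a median of 1.42 in this comparison; the part of gene length in these values was not tested.

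Of 16 further import and processing genes 3 were lower and 2 higher, with a median of -0.22, shares below those of all genes; Mtch1 was at -1.45, Aifm1 at -1.15 and the inner membrane peptidase gene Immp2l at 2.52. Of 8 MICOS and cristae genes 3 were lower, Apool at -0.89, Opa1 at -0.68 and Apoo at -0.61. Among 13 regulators of mitochondrial gene expression 5 were lower and 2 higher, with Tfam at -0.85, Yy1 at -0.64 and Nrf1 at 0.89. Leaving out the unnumbered female control left 5 of the 10 matrix chaperones and proteases lower, against 2512 of the 13091 genes tested. It left 11 of the 26 other outer membrane proteins and 4 of the 13 regulators lower. In the sex difference, Slc25a5 (1.81, adjusted p = 0.030) and Tspo (1.40, adjusted p = 0.040) were higher in males, and Immp2l (-2.30, adjusted p = 0.0011) and Park2 (-2.02, adjusted p = 0.031) lower. Without the unnumbered female control only Immp2l of these 4 passed; without male control a all 4 did. None of these lists held a gene that passed in PND42 males, PND21 or PND1 females; the lowest p there belonged to Clpx at -0.55 in PND42 males, Apoo at -0.75 at PND21 and Slc25a4, another ADP/ATP carrier, at -0.90 at PND1. With age in control females Slc25a4 was at -2.95, Mgst1, a membrane-bound glutathione transferase, at 2.32, Esrra at 1.29 and Apoo at 1.28.

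The fall in exposed PND42 females was also read against the promoter motifs shown above. Of the 13 members with the ETS core in the window, 10 fell, 1 rose and 2 did not pass, with a median log2 fold change of -1.05. Of the 16 matched members without it, 8 fell and 8 did not pass, with a median of -0.60. Of all genes tested 21.4% were lower and 18.9% higher. Members of either kind were thus among those that fell, and these counts carry no test.

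Reads of genes that overlap on the opposite strand cannot be told apart here, because the sources used here do not give the strand setting of the counting. Tomm40l shares 64.3% of its exon bases with Nr1i3, Mtx1 21.2% with Gm43737 and 8.87% with Thbs3, and Pmpca 20.4% with Inpp5e. Pam16 shares 18.7% with Glis2, Timm8b 15.6% with Nkapd1, Grpel1 11.6% with Tada2b and Dnajc19 4.42% with Fxr1. Tomm40 shares 5.72% with Gm20512, Timm17b 4.58% with Gm10491, Timm29 3.38% with Yipf2 and Timm13 3.14% with Tmprss9. Smaller overlaps were found for Timm9, Tomm70a and Vdac2. The values of all these genes may include such reads.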

How the data were processed

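RNA of mouse liver was sequenced as single-end reads of 125 bases in 30 libraries. Per the submitters' processing notes, mm10 was the build and FastQC, STAR and featureCounts were the tools of read quality, alignment and counting, with no versions. The values used here are log2 values as deposited by the authors, which equal log2(count divided by a library size factor, plus a pseudocount of 1); whole reads came back from them within 0.1 of a whole number. The deposited tables also hold the authors' own results, used only where named: a mean signal over libraries (baseMean), log2 fold changes, a test score, and p-values, raw and adjusted. The sources used here do not name the tool of that test. Genes of low mean are not in the deposited tables, so the share of all genes called is over the listed genes.

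Normalised counts are 2 to the deposited log2 value, minus 1. Exposure was tested with limma 3.58.1 (R 4.3.3, trend and robust) on the deposited log2 values, at PND1 and PND21 in 1 fit and at PND42 in 1 fit of the 4 groups, with Benjamini-Hochberg adjustment over all genes with at least 10 normalised counts in as many libraries as the smallest group and a threshold of 0.05. The fit was tested on simulated data. RNA measures were compared with exact permutation tests (scipy 1.17.1). Gene positions are GENCODE vM21, which held 14530 of the 14555 gene identifiers, and promoter letters are RefSeq's on GRCm38.p6. All per-sample columns were used. Per-library values were due by rule for the member of lowest p in each role, a second one in PND42 females where it passed, 5 fixed genes were named in every comparison, and the 6 of lowest p in those of age and sex; every other member is accounted for, and those named with values beyond this were chosen after their values were seen. Members and lists were chosen with earlier results of these data known. Alternatives were other scalings, filters, pseudocounts and fits, and leaving out each library.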

Additional observations from a re-analysis of the deposited data

Results flagged for a closer look

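Among groups of 4 animals, 9 of 210 gene-by-group sets (4.29%) held a library far from the other 3; chance alone flags about 1 in 20. At PND1, Tomm22 had 678 normalised counts in exposed pup 3, the next lowest 919.8, and Pmpca 1828 in exposed pup 2, the next highest 1682. Tomm70a had 2024 in PND1 control 2, the next lowest 2789.9. In PND42 females, Timm10 had 168 in exposed female 3, the next lowest 228, and 506 in control 3, the next lowest 698. Tomm20 had 312 in exposed female 1, the next lowest 379.8, and Samm50 had 3057 in control 3, the next highest 2221. In PND42 males, Timm23 had 548 in control c, the next highest 408, and Tomm34 had 492 in control a, the next highest 252.

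The exposure effect differed between the sexes at PND42, by the test of the difference itself, for Pmpcb (1.47 on the log2 scale, male minus female), Timm29 (1.37), Tomm20 (1.13), Grpel1 (1.62) and Mtx2 (0.95). Only Pmpcb passed whichever of the 16 animals was left out. Timm29 was kept in 9 of the 16 cases, Tomm20 and Grpel1 in 4 each and Mtx2 in 2.

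At PND21 and PND1 all exposed animals lay on opposite sides of the control mean for Timm17a (difference of effects 0.62), Samm50 (0.58), Timm44 (0.46) and Gfer (0.36). The test of that difference between ages passed for none of these 4.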

How the results depend on the processing

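In PND42 females 15 of the 23 lower genes were called in all 18 settings that were run, and 18 whichever library was left out (18 to 22 lower, 0 to 1 higher). Scaling by nuclear-encoded reads gave 15 lower, and a fit of the females alone 26; scaling by total reads, a fit without trend or robust, and the replicate block each gave 0 higher. The sex difference held 3 genes under nuclear scaling, 2 without trend or robust, and 1 to 7 with a library left out. For age in controls, scaling by total reads and by nuclear-encoded reads each gave 3 higher and 20 lower, and leaving out a library gave 6 to 11 higher and 6 to 9 lower. For sex in controls, total reads, nuclear-encoded reads, quantile normalisation and a fit without trend or robust each gave 1 higher; total reads gave 4 lower, nuclear-encoded reads 1 lower, and leaving out a library 1 to 8 higher and 0 to 1 lower. In the PND1, PND21 and PND42 male comparisons and the age difference no member was called under any setting run. The cause of these shifts was not tested.

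Values that changed sign, none of which passed in the reported fit, were PND21 Pmpca (0.11 by total reads, 0.16 by nuclear reads), Vdac1 (0.029, nuclear) and Vdac2 (0.034, nuclear), and PND42 female Timm23 (0.13, nuclear). For the age difference they were Tomm40 (0.10 by total and by nuclear reads, 0.029 by quantile) and Timm23 (0.11 by both), for age in controls Tomm40 (-0.24 total, -0.19 nuclear), and for sex in controls Vdac1 (-0.25 total, -0.10 nuclear, -0.086 quantile). With a library left out, PND21 Hspa9 ranged from -0.14 to 0.27, Tomm20 from -0.10 to 0.29 and Gfer from -0.00062 to 0.27, and PND42 male Timm23 from -0.11 to 0.19. The sex difference of Tomm40 ranged from -0.041 to 0.36, and the age difference of Tomm40 from -0.29 to 0.094 and of Timm23 from -0.25 to 0.17. In controls, Vdac1 ranged from -0.18 to 0.10 with age and from -0.078 to 0.37 with sex. The median of the 35 genes changed sign for age in controls (0.11 without PND21 control 1) and for sex in controls (-0.25 by total reads, -0.08 without male control c). At PND21 it was 0.10 by total and 0.15 by nuclear reads, where all genes shifted to 0.23 and 0.27.

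The deviations of same-numbered exposed and control females correlated at -0.08 to 0.23, not all over 0.1 at any age, so the numbers were not used as pairs. With the replicate block 24 members were lower and 0 higher in PND42 females, and 0 were called at PND1 and PND21. No paired analysis was possible because too few numbers are shared between the exposed and control PND42 males.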
